A study of Mus musculus with 24 samples.

Results

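The neuroinflammatory, or A1, reactive astrocyte genes described here were Gbp2, Fbln5, Fkbp5, Srgn, Amigo2, Ggta1 and H2-T23, 7 of 49671 genes in the count table. They were chosen by name, and all 7 were among the 19691 genes with enough counts to be tested. Bulk RNA sequencing was performed on 24 libraries in 6 groups of 4. Neural stem cells (NSC) came from 1 mouse embryonic stem cell line and grew with EGF and FGF, at passages 50 to 60, and AGES, the astrocytes made from them, were the same cells replated on polyornithine and laminin and kept for 3 to 5 days with BMP4 at 20 ng/ml in place of EGF and FGF. BMP4, the loss of both growth factors and the coating thus differ together between AGES and NSC and cannot be told apart. Per the methods, the embryonic stem cell line came from the C57BL/6N substrain, so that substrain and cell origin cannot be told apart between stem cell-derived and primary cells. Culture medium and coating also differed between stem cell-derived cells and cultured primary cells. Medium, coating and origin thus cannot be told apart there either. Primary astrocytes of C57BL/6J mice were isolated with magnetic beads, each library from 2 pooled mice. They came from neonates of 4 to 8 days (neoAC) or adults of 100 to 140 days (AdAC), and were either frozen at once (direct) or kept for 7 to 10 days in vitro (CellC). Per the study's methods, neonatal and adult brains were dissociated with different kits, and removal of debris and red blood cells is given for adult brains only. Removal of the meninges is given for neonatal brains only. Age, kit and these steps thus cannot be told apart. The methods name removal of the olfactory bulb and cerebellum for direct adult isolation. Brain region may therefore also differ between AdAC direct and AdAC CellC. Neonatal tissue is described as cerebral, so region may differ between the ages as well. No group received an inflammatory stimulus, and the 4 libraries of a group were separate isolations or separate cultures.

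Reactive astrocytes change their gene expression after injury or inflammation. The A1 genes were described as the set that rises in astrocytes after systemic endotoxin, and microglial interleukin 1 alpha, tumour necrosis factor and complement C1q together can induce it in culture. The set is mixed in function: it holds interferon-induced genes, genes of antigen presentation, matrix and adhesion proteins and a stress co-chaperone, and so it is often read beside pan-reactive genes and the A2 genes of ischaemia.

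Library totals ran from 27904126 to 37997368 counts. Values are CPM, the standard depth-scaled counts, with library sizes adjusted by the trimmed mean of M values (TMM), and a group whose 4 libraries each held 3 counts or fewer, which is 0.0846 to 0.0997 CPM, was treated as at the floor. The summed level of 8 astrocyte markers was 54317 to 58785 CPM in AGES, 20005 to 22614 in neoAC direct, 13853 to 14324 in AdAC direct, 6466 to 7530 in neoAC CellC and 1944 to 2473 in NSC. It was lowest in AdAC CellC, at 856 to 1325 CPM, although none of the 8 markers was at the floor there. Gfap made up most of the sum in AGES (50487 ± 1882 CPM, SD, n = 4), and the order of the sums does not hold marker by marker: against neoAC CellC, 2 of the 8 were higher in AGES, 3 lower and 3 not called, with a median log2 fold change of 0.10. In bulk libraries, fewer cells of a type and less RNA per cell cannot be told apart.

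Each group showed a different mixture of the 7 genes. By mean CPM, Gbp2 was highest in neoAC CellC and Fbln5 and Ggta1 in AdAC CellC, directly isolated adult astrocytes were highest in Amigo2 and H2-T23, directly isolated neonatal astrocytes were highest in Srgn, and NSC were highest in Fkbp5. Per exon length (RPKM, CPM per kilobase of exon), the highest mean levels among all members and groups were those of Fbln5, 37.1 in AdAC CellC and 32.9 in neoAC CellC, followed by Gbp2 at 20.4 in neoAC CellC. In AGES, Gbp2 (4.65 RPKM), Ggta1 (1.75) and Fkbp5 (1.68) were above 1 RPKM and the other 4 members were not.

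**Figure D1:**
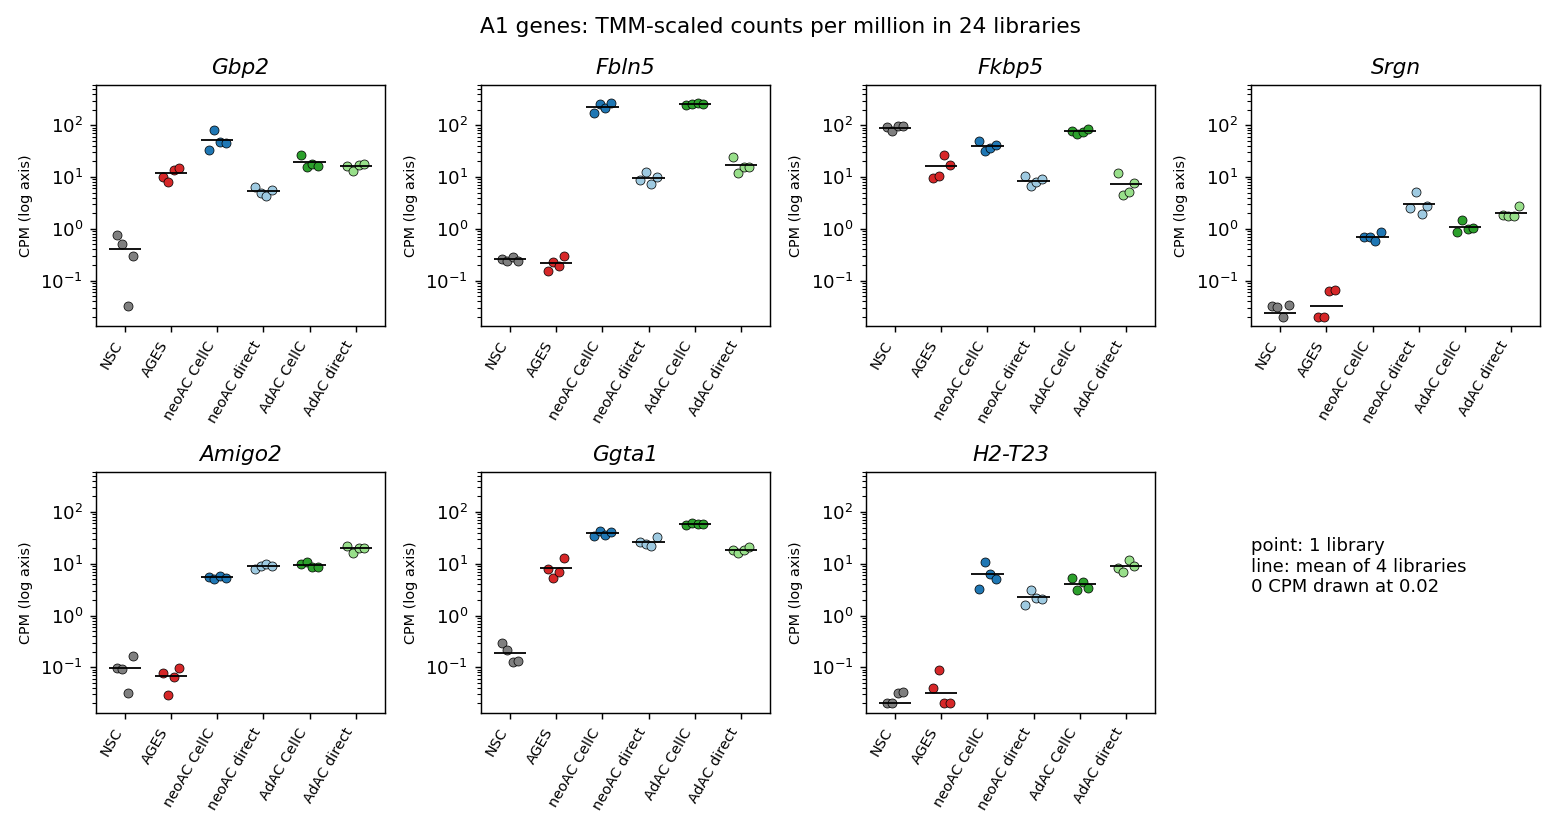
CPM on a log axis for each of the 7 A1 genes, 1 point per library and a line at the mean of the 4 libraries of each group, with 0 drawn at 0.02. Srgn, Amigo2 and H2-T23 sit near the bottom of the axis in NSC and AGES and rise into the range of 0.582 to 22.3 CPM in the primary groups, while Fkbp5 is the only member with its highest mean in NSC.

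Guanylate-binding protein 2 (Gbp2) is an interferon-induced GTPase of cell-autonomous immunity, and H2-T23 encodes the non-classical MHC class I molecule Qa-1, a ligand of natural killer cell receptors. The upstream regions of both carry the letters of an interferon-stimulated response element, the site bound by interferon-activated factors, and these sites are shown because the 2 genes had the largest dependence of the culture difference on age, given further on. The motif searched was GAAA, any 2 bases, and GAAA again, on both strands, in the 250 bases before the RefSeq start of each gene (GRCm38.p6). Srgn held it too, before the second of its 2 starts. Capitals mark the match, which in these lines is read on the strand of the gene.
Gbp2, chr3:142620594-142620623, + strand: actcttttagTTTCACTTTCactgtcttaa
H2-T23, chr17:36032806-36032835, - strand: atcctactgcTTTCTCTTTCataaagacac
Srgn, chr10:62507958-62507987, - strand: gagctttttgGAAAAAGAAAaaataataac

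The matches began 59, 124 and 220 bases before the RefSeq starts of Gbp2, H2-T23 and Srgn, and all 3 stretches overlapped untranslated exons in Gencode vM21, whose transcripts reach further upstream. Of 32851 windows of the same length, 978 or 2.98% held the motif, against 3 of the 9 windows of the members. A gamma-activated site (TTCNNNGAA, in 7.02% of windows) and the core of a glucocorticoid response element (ACANNNTGT, in 5.84%) were found in none of the members' windows, and an NF-kB site (GGGA, any 4 bases, CC, in 17.6%) only in that of Amigo2. A match is a description of the letters and not a measured binding site.

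Gbp2 (chromosome 3, 142620602 to 142638008, GRCm38) was near absent from NSC, at 0.75, 0.516, 0.0318 and 0.301 CPM, and rose with the differentiation into AGES, to 10.2, 7.86, 13.9 and 14.8 CPM. Its highest level was in neoAC CellC, at 32.6, 80.9, 46.4 and 45.9 CPM, and its lowest among primary cells in neoAC direct, at 6.27, 4.90, 4.38 and 5.72 CPM. The adult groups lay between these, with 26.7, 15.9, 17.6 and 16.6 CPM in AdAC CellC and 16.3, 13.1, 17.1 and 18.04 CPM in AdAC direct. Culture thus went with a 9.68-fold higher level in neonatal cells, with no overlap between libraries, whereas the adult libraries overlapped.

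On the log2 scale, the culture difference of Gbp2 was 3.27 ± 0.29 (SE) in neonatal astrocytes (edgeR quasi-likelihood test, adjusted p = 1.14e-09) and 0.25 ± 0.27 in adult astrocytes (adjusted p = 0.396), for which the 95% interval ran from -0.30 to 0.80. The difference between these differences was itself 3.02 ± 0.39 (adjusted p = 3.85e-07). Neonatal cells had less Gbp2 than adult cells when isolated directly (-1.60 ± 0.29, adjusted p = 2.81e-05) and more when cultured (1.42 ± 0.27, adjusted p = 6.66e-05). In the order of levels, AdAC CellC, AdAC direct and AGES were neighbours that could not be told apart, with adjusted p-values of 0.396 and 0.121 for the neighbouring pairs. The AGES level was 1.64-fold below that of AdAC CellC (adjusted p = 0.0209), a call that was lost when AdAC CellC #1 was left out (adjusted p = 0.106), when AGES #1 or #2 was left out (0.053 and 0.0768), or with no filter on low counts (0.107).

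H2-T23 (chromosome 17, 36029773 to 36032855) was at the floor in NSC and AGES, with 0 to 1 and 0 to 3 counts per library. Its level was 3.31, 10.8, 6.4 and 5.10 CPM in neoAC CellC and 1.62, 3.13, 2.17 and 2.13 CPM in neoAC direct. In adult cells the order was the other way round, with 5.34, 3.06, 4.38 and 3.44 CPM in AdAC CellC and 8.19, 6.86, 11.6 and 8.99 CPM in AdAC direct. Neither pair of groups overlapped, so that the cultured libraries were all above the direct ones in neonates and all below them in adults.

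The culture difference of H2-T23 was 1.49 ± 0.30 in neonatal cells (adjusted p = 9.57e-05) and -1.14 ± 0.29 in adult cells (adjusted p = 8.53e-04), and the 2 differed by 2.63 ± 0.41 (edgeR, adjusted p = 4.03e-06). Direct neonatal cells had 3.92-fold less H2-T23 than direct adult cells (adjusted p = 2.07e-06). Cultured neonatal cells had 1.58-fold more than cultured adult cells (adjusted p = 0.0464), but the libraries of the 2 groups overlapped. The value fell to 0.29 without neoAC CellC #2 (adjusted p = 0.365). The call was also lost without neoAC CellC #3 or without AdAC CellC #2, #3 or #4 (adjusted p from 0.0599 to 0.129). Of 3173 different stretches of 100 bases in the transcripts of H2-T23, 100 or 3.15% also occurred in transcripts of other genes, among them H2-D1, H2-T22 and H2-Q1, and reads from these cannot be assigned with certainty. None of the stretches of the other 6 members was shared.

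**Figure D2:**
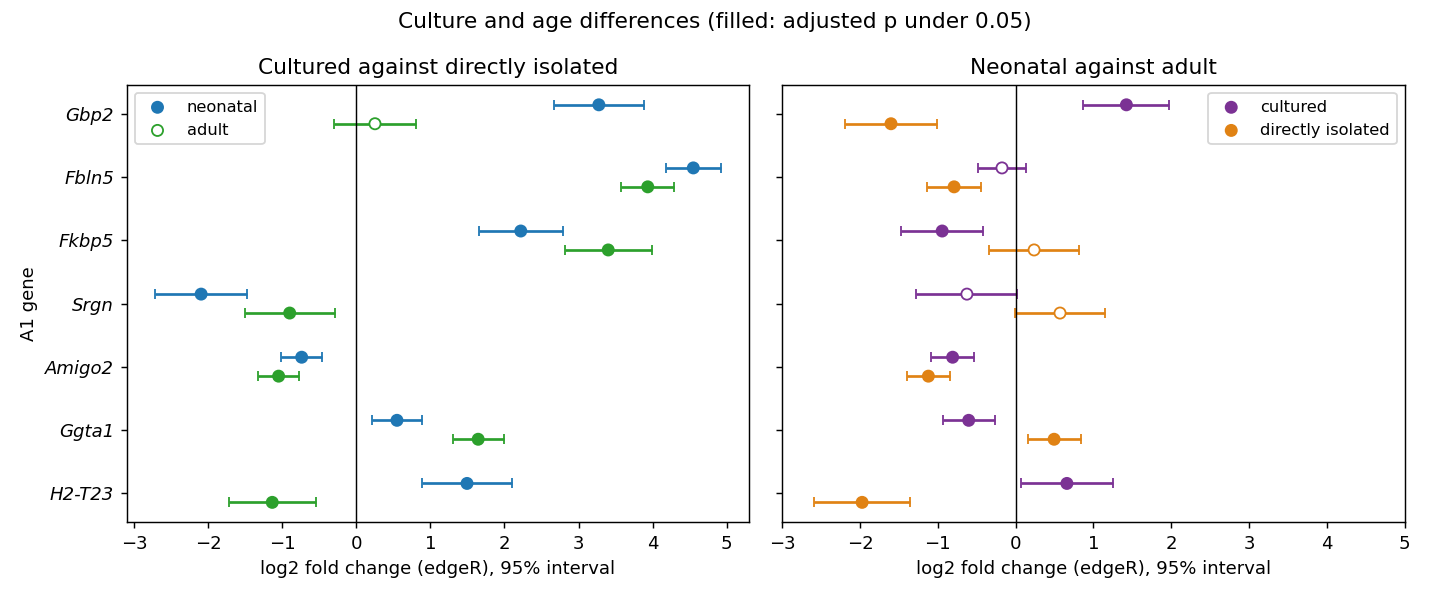
Log2 fold changes of the 7 A1 genes with 95% intervals, for cultured against directly isolated cells at each age (left) and for neonatal against adult cells in each condition (right), with filled points for adjusted p-values under 0.05. H2-T23 lies at 1.49 for neonatal and -1.14 for adult cells on the left, and Gbp2 lies at 1.42 for cultured and -1.60 for direct cells on the right.

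The levels of interferon-induced genes were set beside Gbp2 and H2-T23 library by library. The summed level of 16 such genes, which include Iigp1 of the A1 set but neither of these 2 members, was 227, 823, 582 and 444 CPM in neoAC CellC #1 to #4, the same order of libraries as for both genes. In AdAC CellC it was 319 CPM in #1 against 161 to 176 CPM in the others, and #1 was also the library with the most Gbp2 and H2-T23. In AdAC direct it was 142 to 170 CPM, below all libraries of neoAC CellC, although H2-T23 was at its highest mean there. In neoAC direct the order differed for H2-T23, which was lowest, at 1.62 CPM, in the library with the highest sum (#1). That sum was nearly equal to the next, at 194.1 CPM in #1 and 193.7 CPM in #4. Irf1 alone averaged 80.2 CPM in this group, against a median sum of 187 CPM. Against AdAC direct, Irf1 was the only one of the 16 called higher (by 2.43 ± 0.10), and 6 were called lower. Of all genes tested, 35% were called higher and 36.4% lower in that comparison. The order of these sums without Irf1 was not tested. In NSC, Gbp2 ranged from 0.0318 to 0.75 CPM over sums of only 62.6 to 68.4 CPM. Of the 16 genes, 14 rose and 1 fell with culture in neonatal cells (median log2 fold change 3.90, against 0.04 over all genes tested) and 5 rose and 0 fell in adult cells (median 0.83, against 0 over all genes). Over all genes tested, 34.4% rose and 31.3% fell with neonatal culture and 38.8% rose and 39.2% fell with adult culture, and the counts of the lists that follow stand beside these shares. Ifit1 rose by 6.73 ± 0.76 with neonatal culture, whereas Irf1, a transcription factor of the same response, fell by 1.75 ± 0.10. Leaving out neoAC CellC #2, AdAC CellC #1 and neoAC direct #2 together gave interactions of 2.87 for Gbp2 and 2.61 for H2-T23. The part of interferon signalling in these values was not tested.

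**Figure D3:**
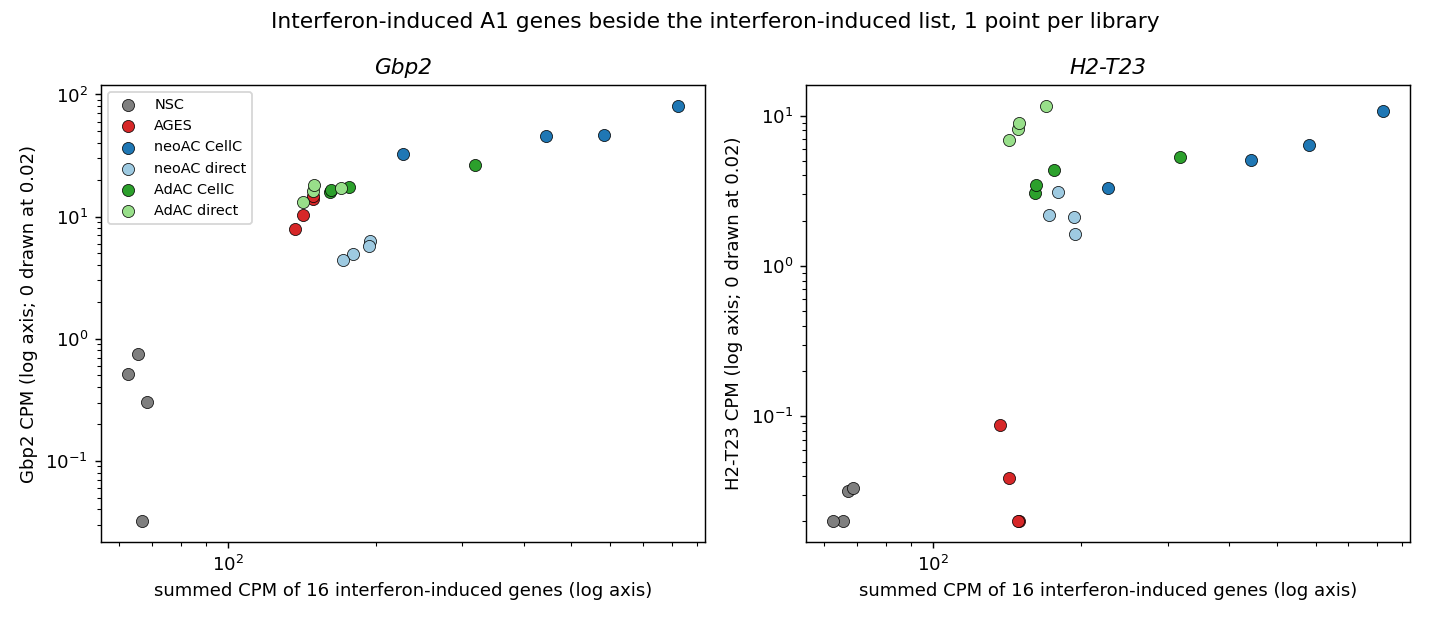
Gbp2 (left) and H2-T23 (right) in CPM against the summed CPM of 16 interferon-induced genes, 1 point per library, both axes logarithmic and 0 drawn at 0.02. The neoAC CellC points climb together from 227 to 823 on the horizontal axis, while the AdAC direct points for H2-T23 lie at 6.86 to 11.6 CPM over a horizontal range of 142 to 170.

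Close relatives of the 2 members were counted as well. Among 10 other guanylate-binding proteins, 7 rose and 1 fell with culture in neonatal cells and 5 rose and 1 fell in adult cells, with Gbp5 at 2.90 ± 0.34 and 1.20 ± 0.34. Gbp11 was the one that fell with adult culture (-3.68 ± 0.35). Among 19 other genes of MHC class I and peptide loading, 18 rose and 0 fell with culture in neonatal cells, and 17 rose and 2 fell in adult cells. The 2 that fell with adult culture, as H2-T23 did, were H2-T24, another non-classical class I gene, by 3.02 ± 0.68, and the peptide transporter Tap2, by 0.41 ± 0.13. B2m, the light chain that H2-T23 pairs with, rose by 2.04 ± 0.18 in the same comparison.

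Ggta1 (chromosome 2, 35400179 to 35463231) encodes the galactosyltransferase that makes the alpha-gal epitope. It was at 0.293, 0.212, 0.127 and 0.134 CPM in NSC and at 8.03, 5.36, 6.86 and 12.7 CPM in AGES. Cultured cells held most, with 34.4 to 42.6 CPM in neoAC CellC and 56.2 to 60.3 CPM in AdAC CellC, against 22.04 to 32.8 CPM in neoAC direct and 16.4 to 20.9 CPM in AdAC direct. All 6 groups stood in an order in which every neighbouring pair passed the test, from AdAC CellC down to NSC.

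The culture difference of Ggta1 was smaller in neonatal cells (0.55 ± 0.16, adjusted p = 0.00481) than in adult cells (1.64 ± 0.17, adjusted p = 1.96e-09), and the interaction was -1.10 ± 0.23 (adjusted p = 1.76e-04). The age difference turned round between the conditions. Neonatal cells had 1.52-fold less than adult cells in culture (adjusted p = 0.00213) and 1.41-fold more when isolated directly (adjusted p = 0.0097), the latter at an adjusted p of 0.053 without neoAC direct #4. In a list of glycan genes, 6 of the 9 tested rose and 2 fell with neonatal culture, and 6 rose and 1 fell with adult culture, led by the galectin Lgals1 (4.01 ± 0.20 and 6.91 ± 0.23).

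Fbln5 (chromosome 12, 101746565 to 101819055) encodes fibulin-5, which tethers elastin to microfibrils and cells. The gene was high only in cultured primary cells, with 173, 252, 214 and 271 CPM in neoAC CellC and 243, 257, 269.6 and 257 CPM in AdAC CellC. Direct cells held 8.84, 12.7, 7.27 and 9.91 CPM at the neonatal age and 24.01, 12.2, 15.4 and 15.7 CPM at the adult age, and NSC and AGES held 0.156 to 0.296 CPM in 8 libraries. Its rank among 15588 protein-coding genes by RPKM moved accordingly, from above 29.7% of genes in neoAC direct to above 91.3% in neoAC CellC.

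Culture went with 23.4-fold more Fbln5 in neonatal cells (log2 difference 4.55 ± 0.18, adjusted p = 2.30e-16) and 15.3-fold more in adult cells (3.94 ± 0.17, adjusted p = 4.66e-16). The difference between the ages was small (0.62 ± 0.23, adjusted p = 0.0188) and lost its call without neoAC CellC #4, neoAC direct #3 or AdAC direct #1 (adjusted p from 0.0512 to 0.0708). The cultured groups could not be told apart (-0.17, 95% interval -0.49 to 0.14, adjusted p = 0.326). No difference in Fbln5 was detectable between AGES and NSC, with 4 to 9 counts per library (-0.21, 95% interval -1.28 to 0.86, adjusted p = 0.76).

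Among 15 other elastic fibre genes, 12 rose and 3 fell with neonatal culture and 13 rose and 1 fell with adult culture. The crosslinking enzyme Lox rose by 3.57 ± 0.30 and 10.4 ± 0.41, and Ltbp2, which binds fibulin-5, by 7.10 ± 0.29 and 5.61 ± 0.23. Fbln2, another fibulin, fell by 3.12 ± 0.40 with neonatal culture. The summed level of 5 fibroblast markers was 382 to 640 CPM in neoAC CellC and 1064 to 1546 in AdAC CellC, against 188 to 310 in neoAC direct, 78.8 to 95.5 in AdAC direct and 1.13 to 1.63 in NSC and AGES, with 1 of the 5 at the floor in NSC, 2 in AGES and none in the primary groups. The markers went both ways between the cultured groups, where Lum (2.38 ± 0.31) and Dcn (0.69 ± 0.25) were higher and Col1a1 (-2.09 ± 0.17) and Col1a2 (-1.48 ± 0.14) lower in neoAC CellC and Col3a1 was not called (0.40 ± 0.20), while the fitted Fbln5 level differed 1.13-fold. The part of fibroblast-like cells in the Fbln5 values was not tested.

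Srgn (chromosome 10, 62493833 to 62527451) encodes serglycin, the core protein of a secretory granule proteoglycan best known from blood and endothelial cells. It was at the floor in NSC (0 to 1 counts) and AGES (0 to 2 counts). The levels were 2.50, 5.04, 1.90 and 2.69 CPM in neoAC direct and 1.88, 1.76, 1.75 and 2.79 CPM in AdAC direct. Cultured cells held less, without overlap at either age: 0.686, 0.707, 0.582 and 0.859 CPM in neoAC CellC, which were 21 to 31 counts, and 0.859, 1.46, 1.01 and 1.05 CPM in AdAC CellC.

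Srgn fell with culture by 2.10 ± 0.30 in neonatal cells (adjusted p = 1.26e-06) and by 0.90 ± 0.29 in adult cells (adjusted p = 0.00747). The interaction of -1.20 ± 0.42 (adjusted p = 0.0144) was lost without neoAC direct #2 (-0.83, adjusted p = 0.0571). That library, with the most Srgn of all, also had a summed level of 62.6 CPM for 8 microglia markers, against 12.7 to 23.2 CPM in the others of its group, and of 355 CPM for 6 endothelial markers, against 91.2 to 141 CPM. Microglia marker sums were 19.3 to 27.8 CPM in AdAC direct, 22.2 to 38.1 in AdAC CellC, 4.93 to 9.20 in neoAC CellC, 0.88 to 1.73 in NSC and 0.351 to 0.769 in AGES, and 5 of the 8 were at the floor in NSC and in AGES, 1 in neoAC CellC (Itgam) and none in the other groups. Endothelial marker sums were 43.3 to 71.2 CPM in neoAC CellC, 66.0 to 75.0 in AdAC CellC, 83.7 to 89.2 in AdAC direct and 1.22 to 6.71 in NSC and AGES, with 1 and 2 of the 6 at the floor in these last 2 groups. For 5 mural cell markers, the sum was 512 CPM in neoAC direct #2, against 237 to 331 CPM in the others of its group. It was 302 to 663 CPM in neoAC CellC, 855 to 1016 in AdAC CellC, 312 to 332 in AdAC direct and 1.11 to 8.46 in NSC and AGES. Of these 5 markers, 4 fell and 1 rose with culture at either age. By rank correlation over the 24 libraries, the mural marker Rgs5 was closest to Srgn (0.98). Rgs5 was not among the 3 closest genes by Pearson's r, which were Mical1, Cd83 and Gucy1b1, and Cd83 was among the 3 closest by both measures. The part of microglia, endothelial and mural cells in the Srgn values was not tested. The age difference did not pass the test in direct cells (0.57, 95% interval -0.0037 to 1.15, adjusted p = 0.0699) or in cultured cells (-0.63, 95% interval -1.27 to 0.023, adjusted p = 0.0858). The former did pass without neoAC direct #3 or AdAC direct #4 (adjusted p = 0.0235 and 0.0259). Of 17 other proteoglycan genes, 5 were higher and 9 lower after neonatal culture (34.4% and 31.3% of all genes) and 11 higher and 5 lower after adult culture (38.8% and 39.2% of all genes).

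Amigo2 (chromosome 15, 97244125 to 97247287) encodes a leucine-rich repeat adhesion protein first known from neurons. It was at 1 to 5 counts per library in NSC and at the floor in AGES (1 to 3 counts). Levels rose from 5.08 to 5.73 CPM in neoAC CellC to 7.83 to 10.1 CPM in neoAC direct and 8.58 to 10.8 CPM in AdAC CellC, and were highest in AdAC direct, at 22.3, 16.4, 19.99 and 20.4 CPM. Within each group the libraries were close, and no library of AdAC direct overlapped any other group.

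Culture went with less Amigo2 at both ages (-0.74 ± 0.14, adjusted p = 3.70e-05 in neonatal and -1.05 ± 0.13, adjusted p = 9.00e-08 in adult cells), and neonatal cells had less than adult cells in both conditions (-0.81 ± 0.14, adjusted p = 1.21e-05 in culture and -1.12 ± 0.13, adjusted p = 4.50e-08 when direct). The culture difference was not shown to differ between the ages (0.31, 95% interval -0.078 to 0.70, adjusted p = 0.148), although it passed the test with DESeq2 (0.41, adjusted p = 0.0396) and with scaling by library size alone (0.46, adjusted p = 0.0355). Its relative Amigo1 fell with culture as well, by 1.17 ± 0.12 in neonatal and by 2.24 ± 0.13 in adult cells. The group with the most Amigo2, AdAC direct, also had the most of 5 oligodendrocyte markers, at 22435 to 25344 CPM, against 3599 to 9337 in AdAC CellC and at most 142 in the other groups, with none of the 5 at the floor in any group. The part of oligodendrocytes in the Amigo2 values was not tested. H2-T23 had its highest mean in the same group, where it was not told apart from neoAC CellC (0.48 ± 0.28, adjusted p = 0.124). Libraries of neoAC CellC held 55.8 to 142 CPM of these markers. Whether oligodendrocytes had a part in the H2-T23 values was not tested either. Amigo2 shares 58 exonic bases with Pced1b on the opposite strand, and Gbp2 shares 24 with Mir6381.

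Fkbp5 (chromosome 17, 28399094 to 28517527) encodes FKBP51, a co-chaperone of HSP90 that restrains the glucocorticoid receptor and is itself induced by glucocorticoids. It was the only member with its highest mean in NSC, at 92.0, 77.3, 94.9 and 97.1 CPM, and it fell in AGES, to 9.71, 10.5, 26.2 and 17.3 CPM. Culture went the other way in primary cells, with 48.5, 32.3, 36.0 and 42.3 CPM in neoAC CellC and 76.7, 69.1, 74.8 and 85.2 CPM in AdAC CellC. Direct cells held 10.5, 6.67, 7.98 and 9.04 CPM at the neonatal age and 11.8, 4.45, 5.23 and 7.58 CPM at the adult age, so that the ages overlapped only when cells had not been cultured.

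Fkbp5 fell 5.66-fold from NSC to AGES (log2 difference -2.50 ± 0.27, adjusted p = 1.93e-08). It rose with culture 4.66-fold in neonatal and 10.6-fold in adult cells (2.22 ± 0.27 and 3.40 ± 0.28, adjusted p = 2.29e-07 and 2.13e-10), with an interaction of -1.18 ± 0.38 (adjusted p = 0.00844). Cultured neonatal cells had 1.92-fold less than cultured adult cells (adjusted p = 0.0025), while direct cells could not be told apart (0.24, 95% interval -0.34 to 0.82, adjusted p = 0.458), nor could NSC and AdAC CellC (0.24, adjusted p = 0.385).

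The other glucocorticoid-responsive genes went both ways. Of 15 genes of the glucocorticoid receptor and its targets, 6 rose and 6 fell with neonatal culture (34.4% and 31.3% of all genes) and 3 rose and 8 fell with adult culture (38.8% and 39.2% of all genes). Cdkn1a, which encodes the cell cycle inhibitor p21, had the direction of Fkbp5, falling by 2.36 ± 0.21 from NSC to AGES and rising with culture by 3.26 ± 0.21 in neonatal and 5.17 ± 0.23 in adult cells. Tsc22d3, which encodes the glucocorticoid-induced leucine zipper, fell by 2.41 ± 0.11 with adult culture, and Hsd11b1, which regenerates active glucocorticoid, fell by 3.36 ± 0.24 and 4.26 ± 0.24 with neonatal and adult culture. From NSC to AGES, 11 of the 15 rose (31.7% of all genes), with Mt2 up by 7.90 ± 0.16, and the 2 that fell (34% of all genes) were Cdkn1a and Klf9 (-1.49 ± 0.09). Among 8 other immunophilin and HSP90 chaperone genes 7 fell and 1 rose from NSC to AGES, 5 rose and 0 fell with neonatal culture and 6 rose and 1 fell with adult culture.

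The members can also be read by comparison, with the share of all tested genes called given beside each count. In AGES against NSC, 3 of 7 members were called, against 65.7% of all genes (31.7% higher and 34% lower): Gbp2 (29.0-fold) and Ggta1 (42.0-fold) higher and Fkbp5 lower. Against both cultured primary groups, AGES had less of all 7 members: 7 were called lower than in neoAC CellC and 7 lower than in AdAC CellC, where 40.5% and 45.2% of all genes were called lower, 34.1% and 31% higher and 74.6% and 76.2% in either direction. The median log2 fold change over the 7 members, with genes at the floor set to their bound, was -2.83 and -3.46, against -0.07 and -0.23 over all genes. Since the second of these medians lies off 0, the AGES against AdAC CellC values of the members are best read relative to -0.23.

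Bounds rather than folds apply to the members that were at the floor in AGES. Amigo2 was at least 54.5-fold and at least 95.5-fold lower in AGES than in neoAC CellC and AdAC CellC. H2-T23 was at least 64.1-fold and at least 40.7-fold lower, and Srgn at least 7.11-fold and at least 10.98-fold lower. Ggta1 was 4.67-fold and 7.09-fold lower, Fkbp5 2.49-fold and 4.79-fold lower, and Gbp2 4.40-fold and 1.64-fold lower. Fbln5, at 4 to 9 counts in AGES, was lower by 9.98 ± 0.27 and by 10.2 ± 0.27 on the log2 scale.

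With neonatal culture, 7 of 7 members were called, 5 higher and 2 lower (of all genes, 65.7% were called, 34.4% higher and 31.3% lower). With adult culture, 6 of 7 were called, 3 higher and 3 lower (78% of all genes, 38.8% higher and 39.2% lower). The age comparison called 5 members in cultured cells, 2 higher and 3 lower in neonatal cells (63.8% of all genes, 28.5% higher and 35.2% lower), and 5 in direct cells, 1 higher and 4 lower (71.4% of all genes, 35% higher and 36.4% lower). The interaction of culture and age called 6 members, 3 in each direction (68.6% of all genes, 33.2% higher and 35.4% lower). With most genes called in every comparison, a call on its own sets no member apart, and the sizes above carry the description.

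The other genes of the original A1 set were also divided in AGES. C3, the complement component used most often as an A1 marker, was at 1621 ± 795 CPM in AGES (SD, n = 4) against 2.07 ± 1.08 in NSC, and Serping1, the C1 inhibitor, at 51.4 ± 5.37 against 0.385 ± 0.315. The GTPase Iigp1 rose from 0.0546 ± 0.0516 to 3.11 ± 0.94 CPM. All 3 passed the test (9.60 ± 0.40, 7.05 ± 0.26 and 5.71 ± 1.07). The antigen presentation genes did not, with H2-D1 at 8.76 ± 4.41 CPM in AGES and 10.3 ± 4.92 in NSC and the immunoproteasome subunit Psmb8 at 0.186 ± 0.0658 and 0.191 ± 0.073. Ugt1a1 held at most 3 counts in any library and was not tested.

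In primary cells, these 5 other A1 genes all rose with neonatal culture, by 2.58 ± 0.19 for Serping1, 2.74 ± 0.29 for H2-D1, 3.24 ± 0.21 for Psmb8, 5.82 ± 0.77 for Iigp1 and 9.57 ± 0.40 for C3, and 4 of the 5 rose with adult culture, the exception being Iigp1 (1.22 ± 0.66, adjusted p = 0.0952). All 5 had larger culture differences in neonatal cells, with an interaction of 0.98 ± 0.26 for Serping1, 1.16 ± 0.39 for H2-D1, 1.28 ± 0.29 for Psmb8, 4.601 ± 1.02 for Iigp1 and 6.48 ± 0.45 for C3. Gbp2, H2-T23 and Fbln5 shared this direction of the interaction and Fkbp5, Srgn and Ggta1 had the opposite one. C3 was at 985 ± 240 CPM in neoAC CellC, 333 ± 86.8 in AdAC CellC, 39.1 ± 3.68 in AdAC direct and 1.29 ± 0.106 in neoAC direct. Per exon length, C3 exceeded every one of the 7 members in AGES, at 315 RPKM against 4.65 for Gbp2, the highest of them.

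**Figure D4:**
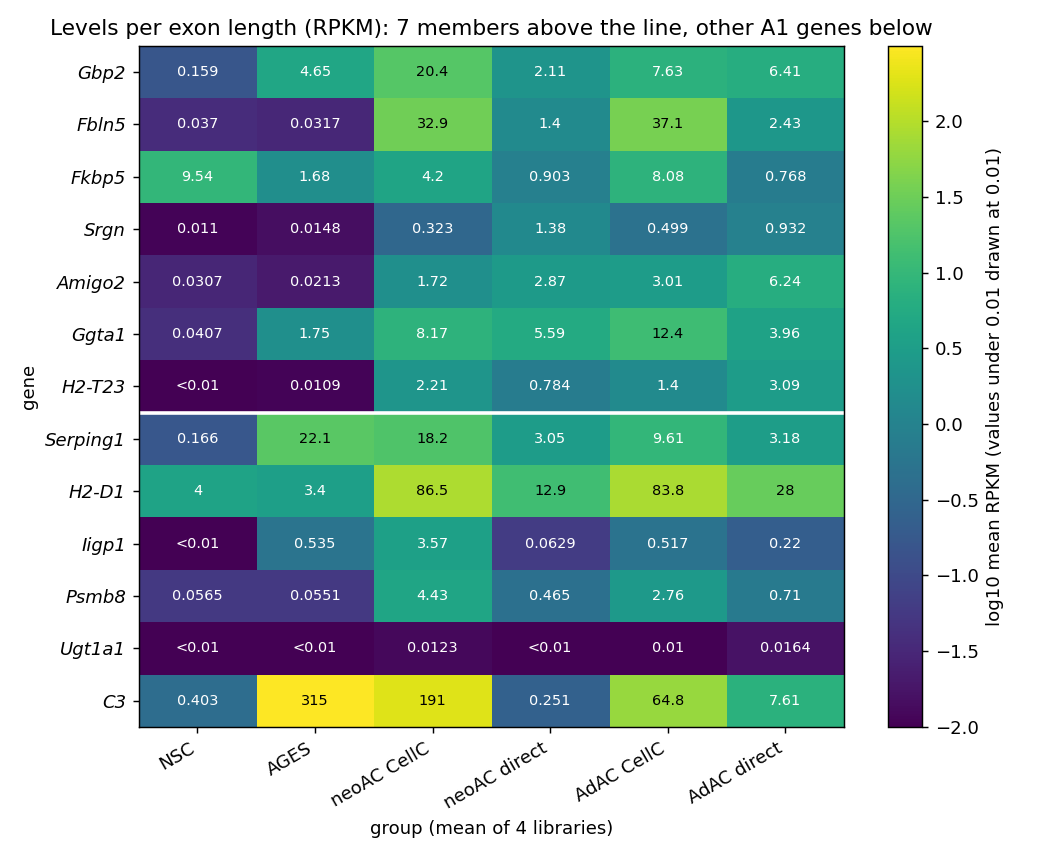
Mean RPKM of the 7 members (above the white line) and of 6 other A1 genes (below it) in each of the 6 groups, coloured on a log10 scale with the value printed in each cell. The AGES column is high for C3 (315) and Serping1 (22.1) and low for Fbln5 (0.0317), Srgn (0.0148), Amigo2 (0.0213) and H2-T23 (0.0109).

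The pan-reactive and A2 lists were also counted, beside all-gene shares of 31.7% higher and 34% lower for AGES against NSC, 34.4% and 31.3% for neonatal culture and 38.8% and 39.2% for adult culture. Of 13 pan-reactive genes, 10 rose and 0 fell from NSC to AGES, 11 rose and 0 fell with neonatal culture and 11 rose and 1 fell with adult culture, with the lipocalin Lcn2 up by 9.55 ± 1.04 and 10.4 ± 1.08 in the primary cells. Of 11 A2 genes tested, 4 rose and 2 fell in AGES, 7 rose and 4 fell with neonatal culture and 10 rose and 0 fell with adult culture, where Ptgs2 and Ptx3 rose by 6.27 ± 0.31 and 6.27 ± 0.25. Among 13 receptors and transducers of the A1 inducers, 6 rose and 5 fell with neonatal culture and 11 rose and 0 fell with adult culture, to be set beside the same shares of all genes. Tnfrsf1b, a receptor of tumour necrosis factor, rose with culture by 1.51 ± 0.28 in neonatal and 6.27 ± 0.31 in adult cells, and Il1r1, the receptor of interleukin 1, by 3.25 ± 0.23 and 1.92 ± 0.22. Both were lower in AGES than in neoAC CellC, by 6.84 ± 0.52 and 5.42 ± 0.27. Of the 13 genes, however, 6 were higher and 5 lower in AGES in that comparison (34.1% and 40.5% of all genes). Lrp1, for example, was higher by 0.67 ± 0.13 in AGES than in neoAC CellC, and it fell by 0.96 ± 0.13 with neonatal culture.

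The genes whose log2 CPM followed each member most closely over the 24 libraries, by Pearson's r, were Zbtb20, Synpo2 and Crb2 for Gbp2 (0.97, 0.96 and 0.96) and S100a10, Mme and Tspo for Fbln5 (all 0.99). For Fkbp5 they were Diaph3, Ptprj and Utp3 (all 0.97), for Srgn Mical1, Cd83 and Gucy1b1 (all 0.98), and for Amigo2 Zfp182, Peg13 and Crym (all 0.99). Ggta1 was followed by Nbl1, Epb41l2 and Timp3 (0.99, 0.98 and 0.97), and H2-T23 by Ttc12, Arhgef16 and A230050P20Rik (all 0.99). The 24 libraries fall into 6 groups whose libraries share their kind of cells, and correlations within groups were not computed. By rank correlation, 1 of the 3 genes was the same for Fkbp5 and for Srgn and none for the other 5 members, with Ifit1 then closest to Gbp2 (0.98).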

How the data were processed

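Reads were counted by the authors with STAR 2.7.3a and featureCounts on GRCm38, with a Gencode release older than vM21. The deposited table holds raw counts per gene for the 24 libraries. Whether strand was used in counting is not given in the sources used here. Exon lengths for RPKM, shared exonic bases and shared transcript stretches rest on vM21 gene models, not on those used in counting. Ensembl identifiers were matched to Gencode vM21 for 49412 of 49671 genes (99.5%). Tests were made with edgeR 4.0.16 in R 4.3.3 (quasi-likelihood, robust, filterByExpr, TMM scaling), in one model of the 6 groups, two-sided, with Benjamini-Hochberg adjustment over 19691 genes at a threshold of 0.05. Standard errors were derived from the F statistic, and RPKM used the union of exons. The fit was tested on simulated data. Alternatives were DESeq2 1.42.0, other scalings and filters, a fold criterion, a replicate block and each library left out. The members and lists were chosen with earlier results of these data known. From each list, the 3 largest called rises and falls with at least 1 CPM could be named, from the A1 list every gene, and the 3 genes most correlated with a member. Primary libraries are separate isolations from pooled mice, but NSC and AGES are cultures of 1 line, for which p-values cover the spread between cultures only. The 95% intervals come from the same fit and carry the spread between libraries. The floor of 3 counts is a fixed rule and carries no estimate of error. Motifs were searched in RefSeq windows of GRCm38.p6.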

Additional observations from a re-analysis of the deposited data

Results flagged for a closer look

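Among the 42 combinations of a member and a group, 3 held a library that stood apart from the other 3 of its group by Dixon's criterion, of which chance gives about 1 in 20. Gbp2 in AdAC CellC was 26.7 CPM in #1 against 15.9 to 17.6 CPM in the others. Srgn in AdAC direct was 2.79 CPM in #4 against 1.75 to 1.88 CPM. Srgn in NSC was 0 CPM in #3 against 0.0303 to 0.0334 CPM in the others, which is 0 counts against 1 count.

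The culture difference depended on age by the interaction term (edgeR, adjusted p in parentheses) for 6 members. The neonatal minus the adult culture difference was 3.02 for Gbp2 (3.85e-07), 2.63 for H2-T23 (4.03e-06) and 0.62 for Fbln5 (0.0188) on the log2 scale. For H2-T23 the culture differences had opposite signs, at 1.49 in neonatal and -1.14 in adult cells. The interaction was -1.18 for Fkbp5 (0.00844), -1.20 for Srgn (0.0144) and -1.10 for Ggta1 (1.76e-04).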

How the results depend on the processing

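Requiring at least 10 counts in every library left Fkbp5 as the only testable member, so that 1 member was called in each comparison and 0 in neoAC direct against AdAC direct. An absolute log2 fold change over 1 left 1 member in neoAC CellC against AdAC CellC and 3 in neoAC direct against AdAC direct. With each library left out in turn, the members called numbered 3 in all fits for AGES against NSC, 7 for AGES against neoAC CellC and for neonatal culture, 6 for adult culture, 6 to 7 for AGES against AdAC CellC, 4 to 5 and 4 to 6 for age in cultured and direct cells, and 5 to 6 for the interaction. Differences between AGES and NSC at the floor changed sign, for H2-T23 (-0.37 to 1.35 with each library left out) to -0.37 without AGES replicate 2 and for Srgn (-0.11 to 0.83) to -0.10 and -0.11 without AGES replicates 3 and 4. Without neoAC CellC #2, AdAC CellC #1 and neoAC direct #2 together, an alternative chosen after seeing the data, 7, 6, 7, 6, 4, 5 and 5 members were called in the 7 comparisons that hold one of these groups, in the order in which the report counts them.

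Same-numbered libraries showed little shared deviation (correlations -0.095 to 0.106), so that no pairing by number was detected. With 4 libraries per group, these correlations cannot exclude it. A replicate block left 4 members called in neoAC CellC against AdAC CellC, where H2-T23 was lost (adjusted p = 0.177; 0.0695 within these groups with no replicate block), and 5 in the interaction, where Fbln5 was lost (adjusted p = 0.0608). Genes called in all fell from 14687 to 8766 (AGES against neoAC CellC), 15002 to 9374 (AGES against AdAC CellC), 12936 to 8554 (neonatal culture), 15366 to 9816 (adult culture), 12561 to 8068 and 14066 to 9181 (age in cultured and direct cells) and 13502 to 8723 (interaction) under the 10-count minimum, and under the fold criterion to 8588, 9188, 6429, 9588, 5872, 7702 and 8871, and from 12937 to 7476 for AGES against NSC. Scaling by library size alone changed the split of all genes called from 6710 higher and 7977 lower to 4504 and 9822 for AGES against neoAC CellC, from 6105 and 8897 to 4817 and 10277 for AGES against AdAC CellC, and from 6766 and 6170 to 8628 and 4468 for neonatal culture. In all, 907 results kept their direction and side of the threshold, 31 lost the threshold, 4 gained it and 3 changed sign; the causes were not tested. Depth limits what can be said of Srgn, Amigo2 and H2-T23 in NSC and AGES.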
